A study of Rattus norvegicus with 15 samples.

Results

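The mitochondrial ribosomal protein genes are the 66 genes on the array whose platform symbol begins with Mrpl or Mrps followed by a number, out of 15037 named genes. The prefix assigned 42 of them to the large subunit of the mitochondrial ribosome and 24 to the small subunit. Each gene had 1 probe set, and each gene ID was found in the RefSeq table of rat genes. The mitochondrial ribosome is a ribosome inside the mitochondrion that makes the few proteins encoded by mitochondrial DNA, all of them subunits of the respiratory chain and ATP synthase. Its RNAs come from mitochondrial DNA, but all its proteins are encoded in the nucleus, made in the cytosol and imported. Many have counterparts in the bacterial ribosome and the others are particular to mitochondria. The heart, with its high density of mitochondria, depends on the products of these ribosomes, and in humans inherited defects of MRPL3, MRPL44 or MRPS22 can cause cardiomyopathy in infancy.

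The arrays measured total heart RNA of male SD (Sprague-Dawley) rats aged 8 to 10 weeks. Hearts were taken 12 h (SAP 12 h, n = 5) and 24 h (SAP 24 h, n = 5) after severe acute pancreatitis (SAP) was induced with 5% sodium taurocholate, infused backwards into the ducts of pancreas and bile, and from rats that had sham surgery (sham, n = 5). The labels give no time after surgery for the sham rats, do not say which chambers were taken and name no batch. Other label fields speak of ischemia/reperfusion, of mice and of a mouse array, so the sample-level fields were followed. Values are log2 signals, normalized together by the authors, and a difference of 1 is a factor of 2 if the scale is plain log2. Array medians lay between 5.9 and 5.98 log2. As a guide to background, 7 pancreatic acinar genes had a median of 4.58 log2. The members lay between 6.34 and 15.77 log2 on average over all arrays, with a median of 10.68, and none had a mean under 6. Probes differ in brightness, so genes are not ranked by level here. The probe sets nearest to background were those of Mrps26, Mrps12 (the counterpart of a bacterial protein of the decoding centre) and Mrps16. A gene was called where limma's p, adjusted over all 23188 probe sets, was under 0.05. The p-values set a group difference against the spread between these hearts within groups, pooled over the 3 groups and moderated across probe sets.

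Mitochondrial ribosomal protein genes had lower signals in hearts of rats with pancreatitis at both times, in both subunits. At 12 h, 18 of the 66 members fell against sham and 0 rose, where 2.57% of all probe sets were called lower and 2.35% higher. At 24 h, 12 fell and 0 rose, where 2.14% of all probe sets were called lower and 1.23% higher. In both directions together, 4.92% of all probe sets were called at 12 h and 3.37% at 24 h. Since 50.7% of probe sets had a mean under 6 log2, the background was also taken over the others, of which 4.84% were called lower and 4.54% higher at 12 h, and 4.01% lower and 2.2% higher at 24 h. The median member differed from sham by -0.40 log2 at 12 h (76.0% of the sham level) and by -0.31 at 24 h (80.5%), against medians of 0.01 and 0.02 over all probe sets. Both comparisons use the same 5 sham hearts.

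The shift was seen across most of the members. At 12 h, 58 of 66 had a lower mean than in sham, beside 47.9% of all probe sets and 47.6% of those with a mean of at least 6, and 37 had an unadjusted p under 0.05 in the lower direction and 0 in the higher one, beside 7.73% and 8.25% of all probe sets. At 24 h, 56 of 66 had a lower mean, beside 45.3% of all probe sets and 53.9% of those with a mean of at least 6, and 35 passed the unadjusted threshold lower and 0 higher, beside 8.65% and 7.78%. In 9 members all 5 SAP 12 h arrays lay below all 5 sham arrays, beside 2.44% of all probe sets and 4.25% of those with a mean of at least 6. In 18 members all 5 SAP 24 h arrays did so, beside 3.37% and 6.08%, and in 0 members all of them lay above sham, beside 2.62% of all probe sets. The fold changes ran from -1.19 to 0.22 at 12 h and from -1.26 to 0.19 at 24 h.

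**Figure D1:**
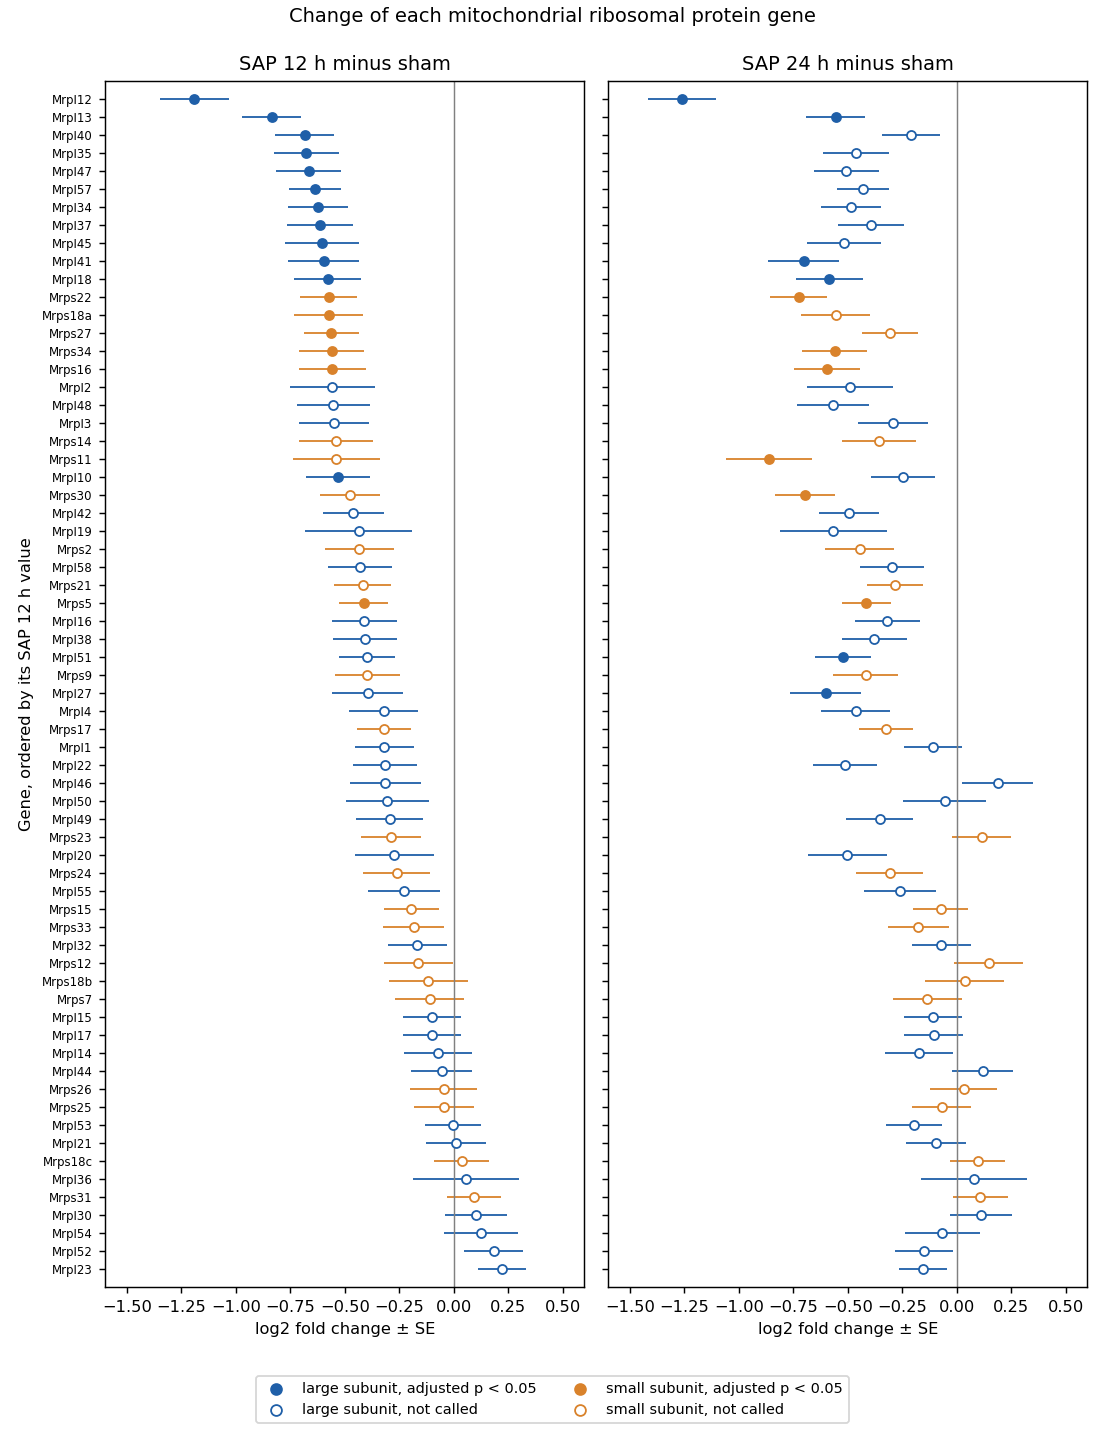
Log2 fold change against sham of each of the 66 genes (points, with limma's standard error as bars) at 12 h (left panel) and 24 h (right panel), ordered by the 12 h value, with large subunit genes in blue, small subunit genes in orange and called genes filled. Most points lie left of 0 in both panels, Mrpl12 lies farthest left at -1.19 and -1.26, and no called gene lies right of 0.

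Taken array by array, the median deviation of the 66 members from their sham means was -0.29, -0.20, -0.64, -0.18 and -0.41 log2 in the SAP 12 h hearts. It was -0.24, -0.38, -0.27, -0.27 and -0.47 in the SAP 24 h hearts, against 0.10, -0.11, -0.14, 0.08 and 0.08 in the sham hearts. All 10 hearts with pancreatitis lay below all 5 sham hearts in this median, and the SAP 12 h hearts spread more widely than the SAP 24 h hearts, with an SD of 0.19 against 0.10. The lowest array was SAP 12 h replicate 3, in which 61 of 66 members lay below their sham mean. Sham replicates 2 and 3 stood below the other sham hearts, with 50 and 55 of 66 members under the sham mean.

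Those 2 sham arrays, with SAP 12 h replicates 3 and 4, also carried signals above 12 log2 for Myl4 and Sln, which are markers of atrial muscle, and no SAP 24 h array did. The summed atrial markers ranged from 10.84 to 20.73 log2 in SAP 12 h, from 11.83 to 16.90 in SAP 24 h and from 13.94 to 20.24 in sham. Of the 6 atrial markers 1 was called lower at 24 h and 0 at 12 h, with median differences from sham of -3.69 and -0.15. Without these 4 arrays, 12 members were called lower at 12 h (10 of them among the 18) and 14 at 24 h (9 of them among the 12), and the median fold changes were -0.39 at both times. With the atrial markers as a covariate, 19 members were called at 12 h and 10 at 24 h.

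Summed cardiomyocyte markers ranged from 21.08 to 21.27 log2 in SAP 12 h, from 21.01 to 21.26 in SAP 24 h and from 20.95 to 21.38 in sham. Of the 6 measured, only Actc1, the cardiac actin, was called lower at 12 h (-0.45). Summed macrophage markers ranged from 12.05 to 13.41 in SAP 12 h, with 3 of 7 called higher, and from 11.43 to 11.83 in SAP 24 h, against 11.49 to 12.06 in sham. Summed neutrophil markers ranged from 8.46 to 10.34 in SAP 12 h (3 of 5 called higher) and from 7.53 to 10.12 in SAP 24 h (1 of 5), against 6.92 to 7.40 in sham. Endothelial sums were 14.82 to 15.98 in SAP 12 h and 15.28 to 15.99 in SAP 24 h, against 14.94 to 15.21 in sham, and fibroblast sums were 18.35 to 18.98 and 18.02 to 18.38, against 18.04 to 18.37. Of these, 1 of 5 endothelial markers was called higher at 12 h and 1 of 5 fibroblast markers lower at 24 h. The median difference from sham was 0.44 at 12 h and 0.42 at 24 h over the endothelial markers. Over the fibroblast markers it was -0.73 and -1.03, with 3 of 5 lower at an unadjusted p under 0.05 at each time. The fibroblast sums follow decorin (Dcn), and the markers of negative sign were the collagen genes Col1a1, Col1a2 and Col3a1 at both times and Pdgfra at 24 h. Summed adipocyte markers ranged from 16.78 to 17.20 in SAP 12 h and from 16.67 to 17.12 in SAP 24 h, against 15.99 to 16.76 in sham, and all SAP 12 h arrays lay above all sham arrays. That sum follows Fabp4, a fatty acid carrier that capillary endothelium also makes, which averaged 16.89 in SAP 12 h and 16.94 in SAP 24 h, against 16.45 in sham (adjusted p = 0.092 and 0.065), and 0 of 5 adipocyte markers were called. Summed skeletal muscle markers ranged from 6.81 to 7.09 in SAP 12 h and from 6.66 to 7.23 in SAP 24 h, against 7.001 to 7.37 in sham, and 0 of 5 were called. None of the 2 erythroid markers was called, and 1 of the 7 acinar genes was called higher at 24 h. The part of these cell types in the fall of the members was not tested. In RNA of whole tissue, fewer cells of a type and less RNA per cell cannot be told apart.

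The 250 bases before the start of 6 members are printed here because the members moved largely in one direction, while others were called at neither time. The factors NRF1, GABP (of the ETS family) and YY1 are known to act at promoters of nuclear genes for mitochondrial proteins. Their part in the fall of the members was not tested. Mrpl12, Mrpl10, Mrpl57 and Mrps27 were called lower at 12 h, and Mrpl17 and Mrps31 were called at neither time. The sequences are from RefSeq (build GRCr8), written 5′ to 3′ on the strand of the gene, and capitals mark the NRF1 core (GCATGCG), the ETS core (CCGGAAG) or the YY1 core (GATGGCG) found on either strand.
Mrpl12, chr10:106256496-106256745, plus strand: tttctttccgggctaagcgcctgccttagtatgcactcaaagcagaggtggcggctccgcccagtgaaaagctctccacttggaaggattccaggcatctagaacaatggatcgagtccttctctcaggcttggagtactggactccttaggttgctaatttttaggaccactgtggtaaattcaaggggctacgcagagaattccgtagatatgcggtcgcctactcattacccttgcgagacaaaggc
Mrpl10, chr10:82522220-82522469, plus strand: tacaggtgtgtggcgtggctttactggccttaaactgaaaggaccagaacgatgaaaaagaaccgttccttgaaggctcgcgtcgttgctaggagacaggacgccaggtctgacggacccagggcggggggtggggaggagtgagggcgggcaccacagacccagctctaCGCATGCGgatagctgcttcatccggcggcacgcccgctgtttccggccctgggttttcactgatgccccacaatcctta
Mrpl57, chr15:36086207-36086456, plus strand: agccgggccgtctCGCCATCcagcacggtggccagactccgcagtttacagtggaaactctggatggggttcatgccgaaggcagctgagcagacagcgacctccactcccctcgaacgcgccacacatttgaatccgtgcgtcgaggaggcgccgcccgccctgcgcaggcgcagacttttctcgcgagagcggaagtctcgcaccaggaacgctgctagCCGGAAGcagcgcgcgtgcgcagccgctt
Mrps27, chr2:32473954-32474203, plus strand: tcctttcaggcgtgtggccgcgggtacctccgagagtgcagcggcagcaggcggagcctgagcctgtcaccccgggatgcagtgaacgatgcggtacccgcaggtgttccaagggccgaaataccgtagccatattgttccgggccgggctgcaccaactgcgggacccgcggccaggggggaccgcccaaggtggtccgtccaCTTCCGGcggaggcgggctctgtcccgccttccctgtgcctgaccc
Mrpl17, chr1:169575700-169575949, minus strand: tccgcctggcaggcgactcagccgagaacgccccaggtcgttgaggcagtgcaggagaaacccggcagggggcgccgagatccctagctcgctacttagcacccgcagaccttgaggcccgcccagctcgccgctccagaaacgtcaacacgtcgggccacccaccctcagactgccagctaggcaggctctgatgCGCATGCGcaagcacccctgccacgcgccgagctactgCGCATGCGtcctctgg
Mrps31, chr16:76324066-76324315, minus strand: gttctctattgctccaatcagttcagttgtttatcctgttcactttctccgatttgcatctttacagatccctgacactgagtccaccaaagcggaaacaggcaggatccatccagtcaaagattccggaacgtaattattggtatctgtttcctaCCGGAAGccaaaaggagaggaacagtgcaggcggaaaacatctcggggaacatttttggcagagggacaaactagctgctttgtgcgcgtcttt

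Mrpl10 carried the NRF1 core on both strands 80 to 73 bases before its start, where 2 copies overlap as a palindrome, and Mrpl17 carried this palindrome at 54 to 47 and again at 16 to 9 bases before its start. Mrpl57 carried the YY1 core on the minus strand at 237 to 231 and the ETS core at 29 to 23. Mrps27 had the ETS core on the minus strand at 46 to 40, Mrps31 at 94 to 88 on its own strand, and the Mrpl12 window held none of the 3 motifs.

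Of the 66 members, 55 had an entry among the RefSeq promoters, with 57 promoter windows. The NRF1 core was in 6 of the 57 (10.5%), beside 2.93% of all 33469 rat promoter windows and 4.24% of the windows of genes on the array. The ETS core was in 12 (21.1%), beside 7.27% and 11.4%, and the YY1 core in 3 (5.26%), beside 2.22% and 2.75%. These shares were not particular to the members. In windows of nuclear genes for the respiratory chain and ATP synthase, the NRF1, ETS and YY1 cores were in 16.13%, 30.65% and 8.065%. In windows of cytosolic ribosomal protein genes they were in 4.84%, 24.19% and 3.23%. The letters CCAAT were in 26 (45.6%), beside 34.0% of all windows, and TATAAA in 8 (14.04%), beside 12.9%. Among the 18 windows of members called lower at 12 h or 24 h, 4 held the ETS core (22.2%) and 1 the NRF1 core (5.56%). Among the 39 windows of the other members, 8 held the ETS core (20.5%) and 5 the NRF1 core (12.8%). These are matches of letters and not binding sites, and motif shares were described without a test.

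Of the large subunit genes, 12 of 42 fell at 12 h. Mrpl12 (gene ID 303746), a protein of the flexible stalk that binds translation factors and which in mammals has also been reported to bind the mitochondrial RNA polymerase, changed most. Its signal was 10.1, 10.4, 10.13, 10.4 and 10.13 log2 in SAP 12 h and 10.31, 10.26, 10.18, 10.11 and 9.94 in SAP 24 h, against 11.73, 11.23, 10.82, 11.66 and 11.67 in sham. Every array with pancreatitis lay below every sham array, and the lowest sham values were those of the 2 sham arrays rich in atrial markers. The mean was 10.23 ± 0.15 in SAP 12 h and 10.16 ± 0.14 in SAP 24 h, against 11.42 ± 0.39 in sham (SD, n = 5 each). The difference from sham was -1.19 at 12 h (SE 0.16, adjusted p = 2.21e-04), or 43.8% of the sham level, and -1.26 at 24 h (SE 0.16, adjusted p = 2.39e-04), or 41.7%. Without the 4 arrays rich in atrial markers it was -1.48 at 12 h and -1.53 at 24 h.

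Mrpl10, which anchors Mrpl12 in the stalk, averaged 9.44 ± 0.30 in SAP 12 h and 9.73 ± 0.14 in SAP 24 h, against 9.98 ± 0.21 in sham. It fell at 12 h (-0.53, adjusted p = 0.041) and was not called at 24 h (-0.25, adjusted p = 0.43). The SAP 12 h and sham arrays overlapped, since SAP 12 h replicates 1 and 2 reached 9.74 and 9.78 and the lowest sham array read 9.71.

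Mrpl13 (gene ID 299938), the counterpart of a conserved bacterial large subunit protein, read 11.75, 11.5, 11.42, 12.02 and 11.94 in SAP 12 h and 12.23, 11.92, 12.09, 12.1 and 11.69 in SAP 24 h, against 12.73, 12.4, 12.5, 12.58 and 12.6 in sham. All arrays with pancreatitis were below all sham arrays. It fell by 0.84 at 12 h (SE 0.14, adjusted p = 0.00117) and by 0.56 at 24 h (SE 0.14, adjusted p = 0.031).

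Mrpl40, a protein particular to mitochondria whose human gene lies in the region lost in the 22q11 deletion syndrome, read 10.81, 11.17, 10.72, 11.19 and 11.32 in SAP 12 h and 11.64, 11.26, 11.63, 11.69 and 11.36 in SAP 24 h, against 11.81, 11.63, 11.56, 11.73 and 11.9 in sham. The SAP 12 h arrays all lay below sham, and the SAP 24 h arrays overlapped both groups. It fell at 12 h (-0.68, SE 0.14, adjusted p = 0.00516) and was not called at 24 h (-0.21, adjusted p = 0.48).

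Mrpl35, Mrpl47, Mrpl57 and Mrpl37 had all SAP 12 h arrays below all sham arrays as well. Mrpl57, particular to mitochondria, ranged from 12.7 to 13.16 in SAP 12 h and from 12.92 to 13.35 in SAP 24 h, against 13.4 to 13.74 in sham, and fell at 12 h (-0.64, adjusted p = 0.00366). Mrpl35 differed by -0.68 (adjusted p = 0.012), Mrpl47 by -0.67 (adjusted p = 0.012) and Mrpl37 by -0.61 (adjusted p = 0.024) at 12 h. Mrpl34, Mrpl45, Mrpl41 and Mrpl18 fell at 12 h with overlapping arrays, with differences between -0.58 and -0.62. Mrpl45 lies at the exit of the tunnel, where new chains meet the inner membrane. At 24 h Mrpl35, Mrpl47 and Mrpl57 again had no overlap with sham but missed the threshold, with -0.46, -0.51 and -0.43 (adjusted p = 0.10, 0.070 and 0.057).

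Large subunit genes called at 24 h numbered 6. Beside Mrpl12 and Mrpl13 these were Mrpl41, Mrpl18, Mrpl51 and Mrpl27. Mrpl41 read 11.07, 10.76, 10.79, 11.45 and 10.99 in SAP 12 h and 11.2, 10.56, 11.06, 10.92 and 10.79 in SAP 24 h, against 11.55, 11.34, 11.35, 11.95 and 11.85 in sham. The SAP 24 h arrays lay below all sham arrays, whereas 1 SAP 12 h array reached into the sham range. It fell by 0.60 at 12 h (adjusted p = 0.041) and by 0.70 at 24 h (adjusted p = 0.023). Mrpl18, the counterpart of a bacterial protein that binds the 5S ribosomal RNA, differed by -0.58 at 12 h and -0.59 at 24 h. Mrpl51 and Mrpl27, the counterpart of a bacterial protein near the peptidyl transferase centre, differed by -0.52 and -0.60 at 24 h and were not called at 12 h (-0.40 and -0.39).

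Of the small subunit genes, 6 of 24 fell at 12 h and 6 at 24 h. Mrps22 (gene ID 683519), particular to mitochondria, read 10.99, 10.81, 10.71, 11.2 and 10.68 in SAP 12 h and 10.9, 10.59, 10.88, 10.73 and 10.53 in SAP 24 h, against 11.68, 11.3, 11.6, 11.2 and 11.48 in sham. SAP 12 h replicate 4 and sham replicate 4 had the same value, and the SAP 24 h arrays lay below all sham arrays. It fell by 0.57 at 12 h (SE 0.13, adjusted p = 0.015) and by 0.73 at 24 h (SE 0.13, adjusted p = 0.00468), to 60.5% of sham at 24 h. Of the other 2 genes with human cardiomyopathy variants named above, chosen here after their values were seen, Mrpl3 averaged 11.25 ± 0.27 in SAP 12 h and 11.50 ± 0.30 in SAP 24 h, against 11.80 ± 0.21 in sham, and missed the threshold (-0.55, adjusted p = 0.056, at 12 h). Mrpl44 differed by -0.05 at 12 h and 0.12 at 24 h.

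Mrps27, a small subunit protein with pentatricopeptide repeats and no bacterial counterpart, read 9.07, 8.75, 8.88, 9.03 and 8.91 in SAP 12 h and 9.24, 8.98, 9.22, 9.05 and 9.43 in SAP 24 h, against 9.46, 9.24, 9.52, 9.85 and 9.38 in sham. The SAP 12 h arrays lay below all sham arrays and the SAP 24 h arrays did not. It fell at 12 h (-0.56, adjusted p = 0.013) and was not called at 24 h (-0.31, adjusted p = 0.22).

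Mrps5, the counterpart of a bacterial protein at the messenger RNA entry, had no overlap with sham at either time, with differences of -0.41 at 12 h (adjusted p = 0.040) and -0.42 at 24 h (adjusted p = 0.049). Mrps34 and Mrps16 fell at both times, Mrps34 by 0.56 at each and Mrps16 by 0.56 at 12 h and 0.60 at 24 h. Their means in sham were 7.31 and 7.23 log2. Of members named for their mean signal and not for a change, Mrpl42 differed by -0.46 at 12 h and -0.49 at 24 h (adjusted p = 0.066 and 0.058), Mrps21 by -0.42 and -0.28, Mrps15 by -0.19 and -0.07 and Mrps26 by -0.05 and 0.03, and none of these was called. In Mrpl42 and Mrps21 the SAP 24 h arrays all lay below sham.

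Mrps11 is the counterpart of a bacterial protein of the platform of the small subunit. In the fit to all arrays, Mrps11 and Mrps30 were called at 24 h and not at 12 h. Mrps11 read 9.82, 9.29, 9.49, 10.22 and 9.33 in SAP 12 h and 9.31, 9.35, 9.29, 9.34 and 9.24 in SAP 24 h, against 10.44, 9.66, 9.9, 10.04 and 10.8 in sham. The SAP 24 h arrays were close together and below every sham array, while the SAP 12 h and sham arrays were spread over about 1 log2 unit each and overlapped. The difference was -0.54 at 12 h (SE 0.20, adjusted p = 0.15) and -0.86 at 24 h (SE 0.20, adjusted p = 0.021). Mrps30, which sits in the large subunit in structures of the mammalian mitochondrial ribosome in spite of its name, read 10.64, 10.87, 10.17, 10.43 and 10.47 in SAP 12 h and 10.66, 10.08, 10.29, 10.18 and 10.27 in SAP 24 h, against 10.98, 11.1, 11.04, 11.04 and 10.8 in sham. Only at 24 h did all its arrays lie below sham, and it differed by -0.48 at 12 h (adjusted p = 0.053) and by -0.70 at 24 h (adjusted p = 0.00775). With the atrial covariate, Mrps30 was called at 12 h too (-0.47, adjusted p = 0.048) and Mrps11 was not (-0.54, adjusted p = 0.16). Without the arrays rich in atrial markers, Mrps11 was called at 12 h (-0.95, adjusted p = 0.017) and Mrps30 was not (-0.28, adjusted p = 0.55). In that fit Mrps11 differed by -0.17 between 24 h and 12 h. The absence of a 12 h call thus depended on the fit for both genes. Neither Mrps11 nor Mrps30 was called between 24 h and 12 h.

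The Mrps18 genes are a family of 3 in mammals. Mrps18a, whose protein is found in the large subunit, averaged 10.00 ± 0.37 in SAP 12 h and 10.01 ± 0.20 in SAP 24 h, against 10.57 ± 0.15 in sham, and fell at 12 h (-0.57, adjusted p = 0.041). At 24 h all its arrays lay below sham but it was not called (-0.56, adjusted p = 0.060). Mrps18b averaged 10.77 ± 0.46 in SAP 12 h and 10.92 ± 0.24 in SAP 24 h, against 10.88 ± 0.18 in sham, and Mrps18c 13.40 ± 0.12 and 13.46 ± 0.14, against 13.37 ± 0.25. Neither was called at either time, and the difference between the 3 genes was not tested.

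**Figure D2:**
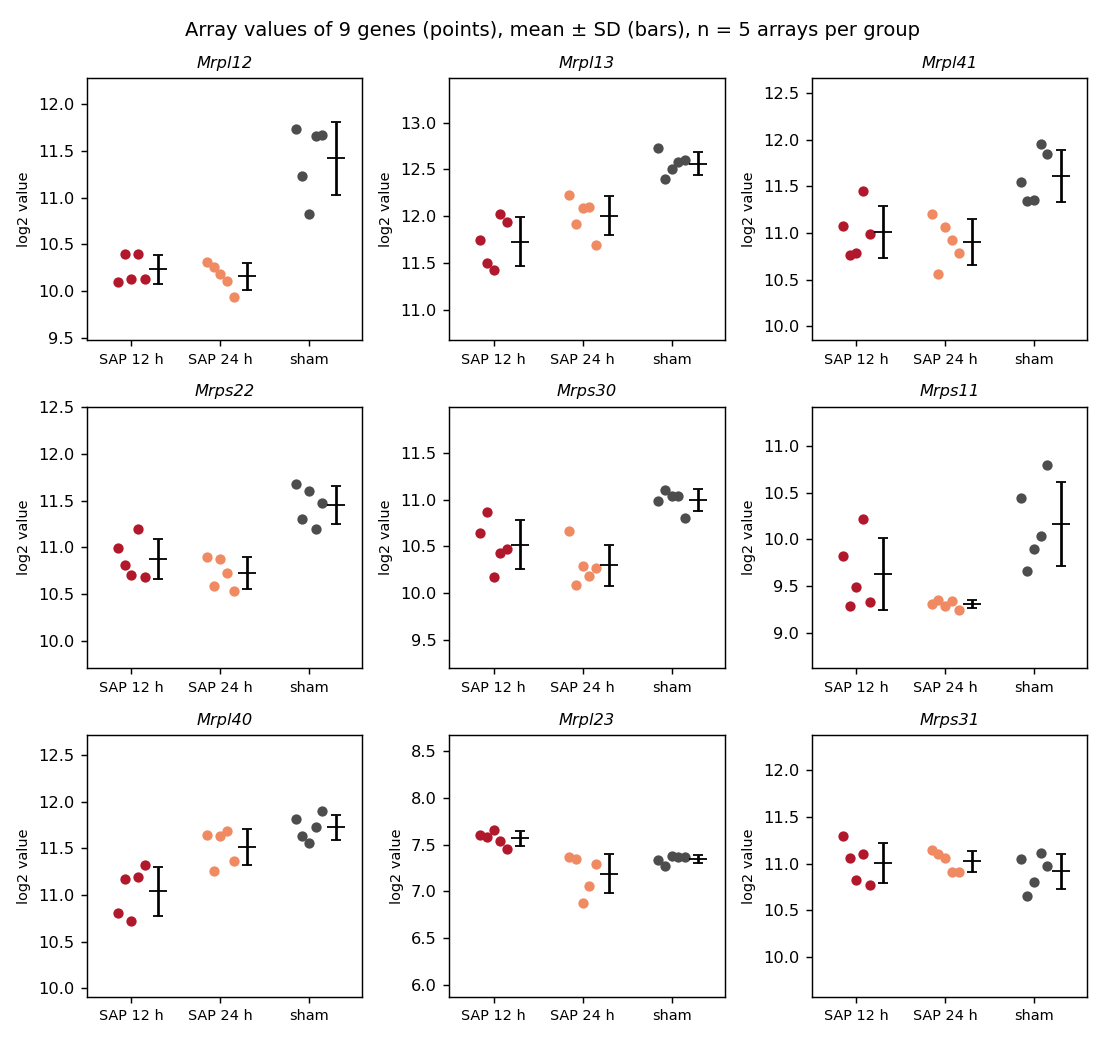
Log2 signal on each array (points) with group mean and SD (bars) for 9 members, with SAP 12 h, SAP 24 h and sham from left to right and an equal span of values in each panel. Mrpl12 is about 1.2 log2 units lower at both times, Mrpl40 stands lower at 12 h, Mrps11 and Mrps30 stand lowest at 24 h, and Mrps31 overlaps between all groups.

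Members with a positive difference from sham were few, and none passed the test. At 12 h the largest was that of Mrpl23 (gene ID 64360), the counterpart of a bacterial protein at the tunnel exit. It read 7.6, 7.58, 7.66, 7.54 and 7.45 in SAP 12 h and 7.37, 7.35, 6.88, 7.06 and 7.29 in SAP 24 h, against 7.33, 7.27, 7.38, 7.37 and 7.37 in sham. All SAP 12 h arrays lay above all sham arrays, as in 2.34% of all probe sets. The SAP 24 h arrays all lay below the SAP 12 h arrays, as in 1.59% of all probe sets and 2.89% of those with a mean of at least 6, and 0 members had the opposite separation, beside 0.983%. The difference at 12 h was 0.22 (SE 0.11, adjusted p = 0.34). Mrpl52 and Mrpl54 had 0.18 and 0.12 at 12 h, and Mrps31 had 0.09 at 12 h and 0.11 at 24 h, with overlapping arrays. At 24 h the largest positive differences were those of Mrpl46 (0.19) and Mrps12 (0.15), and Mrpl30 and Mrps23 had 0.11 each. Without the 4 arrays rich in atrial markers, the sign turned in 3 of the 8 members with a positive value at 12 h (Mrpl30, Mrps18c and Mrps31) and in 6 of 10 at 24 h (these 3, Mrps12, Mrps18b and Mrps26). With the atrial covariate it turned in 0 of 8 at 12 h and in 4 of 10 at 24 h (Mrps12, Mrps18b, Mrps18c and Mrps23). Turns also went the other way at 12 h. Of the 58 members with a negative value, 3 turned positive without the 4 arrays (Mrpl15, Mrps18b and Mrps25) and 1 with the covariate (Mrpl53). At 24 h 0 of 56 negative members turned in either fit.

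The large and the small subunit were then set side by side. At 12 h the median difference from sham was -0.40 over the 42 large subunit genes and -0.36 over the 24 small subunit genes. Of these, 36 of 42 and 22 of 24 were negative. At 24 h it was -0.34 over the large and -0.31 over the small subunit genes, with 38 of 42 and 18 of 24 negative. The median of the large minus the median of the small subunit was thus -0.04 at 12 h and -0.03 at 24 h. Taken on single arrays, the median of the large minus that of the small subunit averaged -0.03 ± 0.05 in SAP 12 h and -0.05 ± 0.07 in SAP 24 h, against 0.01 ± 0.06 in sham (SD, n = 5 each). It ranged from -0.10 to 0.03 in SAP 12 h and from -0.17 to 0.02 in SAP 24 h, against -0.06 to 0.08 in sham, so the groups overlapped, and no test was made of it. With Mrps18a and Mrps30 placed in the large subunit, where structures have them, the medians were -0.40 (44 genes, 13 called) and -0.30 (22 genes, 5 called) at 12 h, and -0.37 (7 called) and -0.30 (5 called) at 24 h. At 12 h the sign of the subunit difference turned without the 4 arrays rich in atrial markers, to 0.05.

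Genes with and without a counterpart in bacteria were set side by side in a split chosen after values were seen, which counts Mrps18c and not Mrps18a or Mrps18b as the bacterial counterpart. Of the 28 members particular to mitochondria, 9 fell at 12 h and 5 at 24 h, with median differences from sham of -0.40 and -0.30. Of the 38 members with a bacterial counterpart, 9 fell at 12 h and 7 at 24 h, with medians of -0.36 and -0.32.

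Between 24 h and 12 h limma called 0 members, where 0.69% of all probe sets were called, 0.569% lower and 0.121% higher, and 1.08% of those with a mean of at least 6 were called lower. With limma's unadjusted p under 0.05, 3 members were higher and 2 lower at 24 h, beside 5.84% and 7.35% of all probe sets. The median difference over members was 0.00, with 33 positive and 32 negative values between -0.38 and 0.50. Mrpl46 had the largest positive one, with 10.83, 11.07, 11.02, 11.52 and 11.15 in SAP 24 h, against 10.53, 11, 10.24, 10.79 and 10.52 in SAP 12 h (0.50, 95% interval 0.16 to 0.85, adjusted p = 0.17). Its arrays overlapped between the times. Mrpl40 differed by 0.47 (95% interval 0.19 to 0.76, adjusted p = 0.12), Mrps23 by 0.40 (adjusted p = 0.19) and Mrpl23 by -0.38 (adjusted p = 0.13). These intervals do not show that the levels at both times were alike.

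Other proteins of the mitochondrial ribosome carry names outside the Mrpl and Mrps series. Of the 5 measured, Dap3, a GTP-binding protein of the small subunit, and Ptcd3 fell at 12 h (-0.55 and -0.53, adjusted p = 0.036 and 0.030), and none was called at 24 h. The median difference of the 5 was -0.41 at 12 h and -0.35 at 24 h.

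The cytosolic ribosome, which makes the mitochondrial ribosomal proteins themselves, had most of its genes at or above the sham level. Of 73 genes taken by the symbols of its proteins, 1 was called lower and 4 higher at 12 h, and 0 at 24 h. The median differences from sham were 0.25 and 0.06. The list takes in the like-named Rpl27l2, Rpl39l1 and Rps12l4, with means of 4.95, 5.68 and 5.70 log2, each of negative sign at 12 h. The genes called higher at 12 h were Rpl6, Rps6, Rps27 and Rps28, and the one called lower was Rpl3l (-0.79), the form of Rpl3 made in striated muscle. Of 70 nuclear genes for subunits of the respiratory chain and ATP synthase, which join the products of the mitochondrial ribosome in common complexes, 15 fell at 12 h and 7 at 24 h and 0 rose at either time. Their median was -0.27 at 12 h and -0.18 at 24 h. In share called lower at 12 h, the mitochondrial ribosomal protein genes had 27.3%, the respiratory chain list 21.4% and the cytosolic list 1.37%, and the difference between the lists was not tested.

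**Figure D3:**
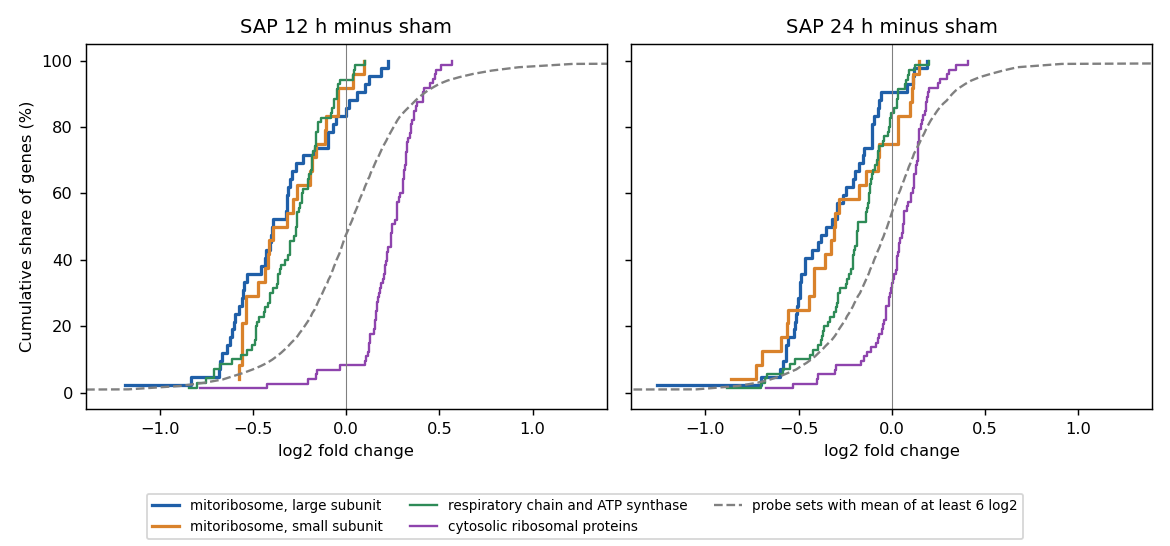
Cumulative share of genes (vertical, percent) against log2 fold change from sham (horizontal) at 12 h (left) and 24 h (right) for the large and small subunit genes of the mitochondrial ribosome, the respiratory chain and ATP synthase list, the cytosolic ribosomal protein genes and all probe sets with a mean of at least 6 log2. The curves of both subunits run close together and left of the dashed curve of all such probe sets, and the cytosolic curve runs to its right at 12 h, with a median of 0.25.

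Genes that build or serve the mitochondrial ribosome were also called lower, with list medians nearer 0 than that of the members at 12 h, and the difference between the lists was not tested. Of 18 measured genes for assembly and ribosomal RNA modification, Nsun4, a methyltransferase, and Fastkd2 fell at 12 h (-0.50 and -0.53) and 0 were called at 24 h, with list medians of -0.15 and -0.12. Of 13 translation factor genes, 4 fell at 12 h (30.8%), with a list median of -0.14. These were the initiation factor Mtif2 (-0.78, adjusted p = 0.004), the recycling factor Gfm2 (-0.52), the elongation factor Guf1 (-0.66) and Taco1, an activator of cytochrome oxidase translation (-0.67). At 24 h Guf1 alone was called (-0.76, adjusted p = 0.005), and the list median was -0.11.

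Of 17 genes for mitochondrial aminoacyl-tRNA synthesis, Qrsl1, a subunit of the enzyme that makes glutaminyl-tRNA, fell most at 12 h (-1.01, adjusted p = 0.001), and Fars2 (-0.79) and Cars2 (-0.53) fell too. At 24 h Qrsl1 was still called lower (-0.61) and Kars1, which serves both the cytosol and mitochondria, rose (0.52, adjusted p = 0.029). The list medians were -0.25 at 12 h and -0.12 at 24 h. Of 17 genes for mitochondrial DNA upkeep, transcription and RNA handling, Lrpprc (-0.69, adjusted p = 0.002), Supv3l1 (-0.71), Grsf1 (-0.54) and Pnpt1 (-0.40) fell at 12 h (23.5%) and 0 were called at 24 h, with medians of -0.18 and -0.07. These proteins stabilise or degrade mitochondrial RNA. Tfam, which packages mitochondrial DNA, and Polrmt, its RNA polymerase, were not called (0.07 and -0.24 at 12 h).

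Of 10 regulators of mitochondrial biogenesis, Myc rose at 12 h (0.94, adjusted p = 0.015) and Ppargc1b, a coactivator, fell at 24 h (-0.77, adjusted p = 0.025). Ppargc1a, the related coactivator, averaged 14.31 in SAP 12 h and 13.87 in SAP 24 h, against 14.16 in sham, and was not called. In these mitochondrial lists, none of the genes was called between 24 h and 12 h.

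The count of called members moved with single hearts. At 12 h it was 9 without SAP 12 h replicate 3, SAP 12 h replicate 5 or sham replicate 5 and 10 without sham replicate 1 or sham replicate 4. At 24 h it was 4 without SAP 24 h replicate 2, 7 without SAP 24 h replicate 3 or 4, 3 without SAP 24 h replicate 5, 4 without sham replicate 1 or 5 and 5 without sham replicate 4. Of the 16 called members examined at 12 h, 9 were called in each of the 15 fits that left out 1 heart, namely Mrpl12, Mrpl13, Mrpl34, Mrpl35, Mrpl40, Mrpl47, Mrpl57, Mrps22 and Mrps27. At 24 h 3 of 12 were, namely Mrpl12, Mrps22 and Mrps30. Without the 4 arrays rich in atrial markers, 8 of the 18 calls at 12 h were lost (Mrpl10, Mrpl37, Mrpl45, Mrpl47, Mrps5, Mrps18a, Mrps22 and Mrps27), as were the 24 h calls of Mrpl51, Mrps5 and Mrps16. With the atrial covariate the 24 h calls of Mrps11 (adjusted p = 0.058), Mrpl51, Mrps16, Mrpl18 and Mrps5 were lost. The median difference over the 66 members ranged from -0.40 to -0.30 at 12 h and from -0.36 to -0.27 at 24 h over the fits that left out 1 heart.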

How the data were processed

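Hearts of 15 rats were measured on Affymetrix arrays. The values are log2 signals per probe set, deposited by the authors with 2 decimals. The submitters' processing notes name Affymetrix Expression Console (version not given in the sources used here). That the scale is log2 of RMA output (background correction, quantile normalization and median polish) rests on the name of the deposited table. Both deposited tables were identical. Symbols came from GEO's platform annotation. Of 23188 probe sets 15049 had 1 symbol and 8139 are unnamed here.

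The 3 groups were compared with limma 3.58.1 in R 4.3.3 (lmFit and eBayes) over all 15 arrays, with no filter and no fold threshold, and p-values were adjusted over all probe sets by the Benjamini-Hochberg method. Precision is limited by the number of arrays, and the median SE of a member was 0.15 log2. On simulated data, 86% of changes of -1 log2, 52% of -0.7, 34% of -0.5 and 2% of -0.3 were called at 12 h (50 probe sets each). The simulation used independent normal noise, changed only probe sets with a mean of at least 6 and left 22988 of 23188 unchanged. In the data 1140 probe sets were called at 12 h, and the adjusted threshold depends on how many change. These shares are therefore not the power of the real comparison.

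The 15 lowest adjusted p-values among called members of each comparison with sham, the largest positive and negative differences per subunit and the highest and lowest means were named. Mrps18b, Mrpl3, Mrpl45 and Tfam, Polrmt and Ppargc1a were added after their values were seen. Mrpl17 was named for its promoter window alone. The members, the gene lists and the cell type markers were chosen with earlier results of these data known. Alternatives changed the scaling, the filter, the variance model, the arrays used, the threshold and the subunit assignment.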

Additional observations from a re-analysis of the deposited data

Results flagged for a closer look

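Dixon's rule was applied to 117 groups of 5 arrays, made of the named members and of the array medians of each subunit. In 9 of them, all of named members, the gap of 1 array to the nearest other array passed the critical value of 0.71 of the range of the group. By chance such a gap comes up in about 5% of groups. SAP 24 h replicate 5 was the low array in 3 of them, with 9.58 log2 for Mrpl18 (next 10.13), 13.13 for Mrpl35 (next 13.4) and 12.11 for Mrpl54 (next 12.48). SAP 12 h replicate 3 was low for Mrpl35, with 12.53 (next 13.25). SAP 12 h replicate 2 was high for Mrpl44, with 7.7 (next 7.47), and for Mrps18a, with 10.64 (next 9.93). SAP 12 h replicate 4 was high for Mrpl51, with 10.91 (next 10.48). Sham replicate 4 was high for Mrpl44, with 7.98 (next 7.46), and sham replicate 1 was low for Mrpl38, with 7.57 (next 7.96).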

How the results depend on the processing

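No setting called a member higher in any of the 3 comparisons, and 0 members were called between 24 h and 12 h under any setting run. Against 18 calls at 12 h, a fit to only the compared groups gave 11, an adjusted p under 0.01 gave 4, and leaving out 1 heart gave 9 to 21. Against 12 calls at 24 h, a fit to only the compared groups gave 19, leaving out the lower 50% of probe sets gave 19, array weights gave 21, an adjusted p under 0.01 gave 3, an adjusted p under 0.10 gave 19, and leaving out 1 heart gave 3 to 18. Other scalings, filters and variance models gave 18 to 23 calls at 12 h and 9 to 13 at 24 h. The cause of these moves was not tested. Some settings use fewer probe sets or hearts, whereas array weights use all of them. The large minus small subunit difference at 12 h was 0.052 without the 4 arrays rich in atrial markers and -0.07 to 0.02 over the fits that left out 1 heart.

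Differences from sham near 0 changed sign. At 12 h Mrps18c gave -0.0418 with quantile normalization, -0.0633 without the 4 atrial-rich arrays and -0.0335 to 0.11 on leaving out 1 heart; Mrpl54 gave -0.0485 to 0.20 on leaving out 1 heart, and Mrps31 gave -0.0033 without the 4 arrays. At 24 h the fit with atrial markers as covariate gave -0.0688 for Mrps12 and -0.00093 for Mrps23. Leaving out the 4 arrays gave -0.0187 for Mrps12, -0.066 for Mrpl30 and -0.0207 for Mrps31. Some members of negative sign turned positive at 12 h. Leaving out the 4 arrays gave 0.023 for Mrpl15, 0.013 for Mrps18b and 0.11 for Mrps25, and the covariate gave 0.0017 for Mrpl53.

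Same-numbered hearts of different groups gave no clear sign of deviating together. Of 15 such pairs, 2 had a correlation over 0.1, and the range was -0.17 to 0.26. Such correlations cannot exclude that the numbers pair the samples. With the replicate number as a block, 13 members were called at 12 h, 9 at 24 h and 0 between the times. Signals near background limit Mrps12, Mrps16 and Mrps26 most.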
